A study of Mus musculus with 23 samples.

Results

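The genes described here are 10 glycosyltransferases of the intestinal mucosa, measured in the ileum of male mice: B3galt5, B3gnt7, B3gnt3, B3gnt5, Gcnt3, B4galnt2, B4galnt1, Fut2, Fut4 and St3gal4. They were taken by gene name from the array annotation, which gave 19 probes, and 18 of these were among the 37161 probes (17574 genes) of the deposited table. The 19th, a probe of B3gnt5 (A_51_P389156), was not well above background on any array. The set was chosen by measured PCN changes: the differences between PCN and CONT arrays of this study, in which B3galt5 and B3gnt7 stood out, were known when it was drawn up. The PCN changes of its members are therefore a description and carry no p-value below.

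The study compared wild-type (WT) C57BL/6J mice, bought at 6 weeks of age, with mice without the pregnane X receptor, PXR (Pxr-/-, the gene being Nr1i2), which had been backcrossed to this strain and bred in the authors' facility for 10 years. After 2 weeks of acclimatisation, mice received pregnenolone 16α-carbonitrile (PCN), a steroid ligand of the mouse receptor, at 100 mg/kg in corn oil by daily intraperitoneal injection for 4 days, or the oil alone (CONT), and were killed at ZT 6, 6 h after the last injection. The labels call the mice fed, while the paper describes mice at this hour as semi-fasted. There was 1 array per mouse, 5 in the WT PCN group and 6 in every other group. Genotype and breeding origin cannot be told apart in these groups. The deletion is present in the whole animal, and the samples are whole ileum, so fewer cells of a type and less RNA per cell cannot be told apart.

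Glycosyltransferases of the Golgi build the sugar chains of mucins, membrane glycoproteins and glycolipids by adding 1 sugar at a time. B3galt5 adds galactose to a terminal N-acetylglucosamine, and B3gnt7, B3gnt3 and B3gnt5 are N-acetylglucosaminyltransferases that lengthen such chains. Gcnt3 makes branches on mucin O-glycans, while Fut2, Fut4, St3gal4, B4galnt2 and B4galnt1 add the fucose, sialic acid or N-acetylgalactosamine found at or near chain ends. In the intestine these end groups form the surface that microbes and lectins bind.

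All values below are log2 levels of the table deposited by the authors. A probe was called in a comparison when limma's moderated test gave a Benjamini-Hochberg adjusted p of at most 0.05 over all probes and the fold change was above 1.5. The arrays had similar signal, with 60.9% to 67.3% of probes well above background. Markers of ileal enterocytes were present, with 8 of 8 above background on all 23 arrays. The probe of Nr1i2 read 11.34 to 12.44 over all arrays of both genotypes, and whether it lies in the deleted part was not analysed here, so it checks no genotype label. In 3 arrays the summed level of B cell and Peyer patch markers lay more than 1 log2 unit above the median of all arrays: WT PCN replicates 2 (13.72) and 3 (13.85) and Pxr-/- PCN replicate 1 (12.35), against 10.77 to 11.49 in the other 20. Results are given without these 3 arrays where that changes a call.

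B3galt5 and B3gnt7 carried the PCN changes of the set. The array has a single probe for B3galt5 (A_51_P301435) and a pair for B3gnt7 (A_51_P378576 and A_55_P2719040). Each is an oligonucleotide of 60 bases. The first 30 bases are printed here, 5′ to 3′, because the reading of B3gnt7 depends on which of its probes is taken.
B3galt5 A_51_P301435: cactgaatggagtttggaattgtcatttgc
B3gnt7 A_51_P378576: gaggtccaggaatagccagaacttccctga
B3gnt7 A_55_P2719040: ctttttcccttagagtgactggttcaaagt
On build mm9 the array annotation places the B3galt5 probe at chr16:96541339-96541398 and the B3gnt7 probes at chr1:88202952-88203011 and chr1:88201223-88201282, all on the plus strand. Whether they lie in coding sequence or in an untranslated region was not analysed here. The last of these, A_55_P2719040, was designed on an Ensembl transcript.

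B3galt5 was higher in WT mice given PCN and was not called in Pxr-/- mice. In WT CONT its level was 8.27, 9.69, 9.08, 9.78, 8.45 and 9.78 in replicates 1 to 6. In WT PCN it was 12.15, 12.63, 13.24, 13.08 and 10.62 in replicates 1 to 5. All 5 WT PCN arrays lay above all 6 WT CONT arrays, and replicate 5 was the lowest of them by a wide margin. The fitted PCN effect in WT was 3.19 (SE 0.542) on the log2 scale, a 9.14-fold higher level.

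In Pxr-/- CONT the B3galt5 level was 9.28, 8.99, 10.38, 8.04, 10.51 and 10.97 in replicates 1 to 6. In Pxr-/- PCN it was 7.49, 8.52, 8.88, 9.24, 8.85 and 10.50. These groups overlapped, and the PCN effect was -0.78 (SE 0.515), with a 95% interval from -1.85 to 0.29. Within wash batches the Pxr-/- value took both signs, 0.24 (SE 0.614) in batch 1 and -1.80 (SE 0.584) in batch 2, while the WT value was 4.12 (SE 0.687) and 2.50 (SE 0.584).

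**Figure D1:**
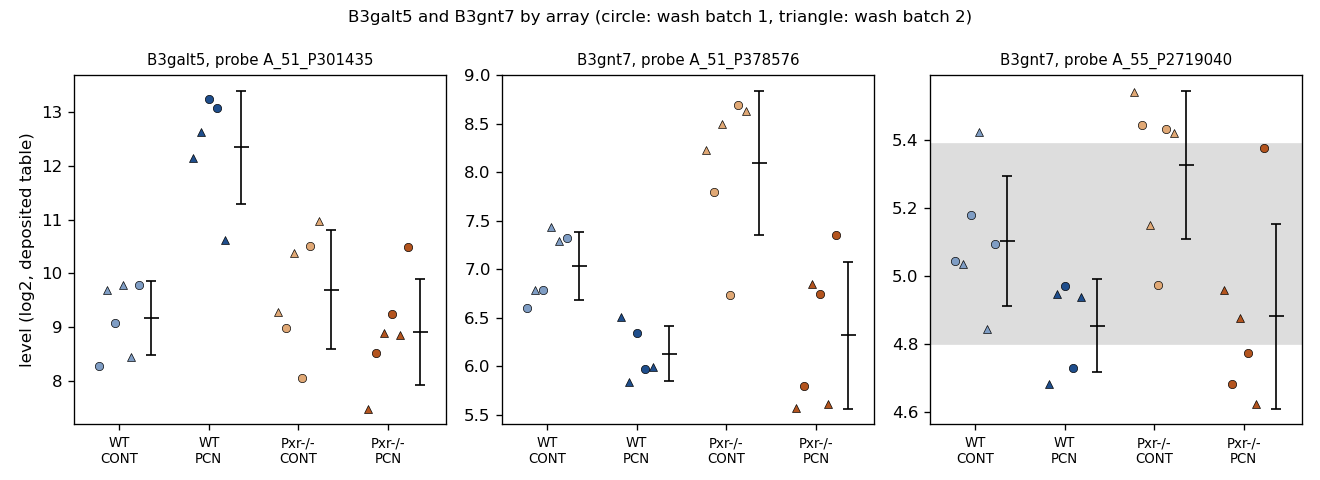
Level (log2, deposited table) of the B3galt5 probe and both B3gnt7 probes in each array, by group; circles are wash batch 1, triangles wash batch 2, and the bars give the mean ± SD. B3galt5 in WT PCN (10.62 to 13.24) lies above WT CONT (8.27 to 9.78), and the grey band in the last panel marks the range over arrays of the lowest signal well above background (4.80 to 5.39).

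The PCN effect on B3galt5 differed between the genotypes by 3.97 (SE 0.748, 95% interval 2.42 to 5.52, limma's adjusted p = 0.0338). This difference, and the comparison of the genotypes under PCN, use the same arrays as the PCN effects that led to the choice of the gene, so they are not independent of that choice. Its size held within both wash batches (3.88, SE 0.921, and 4.30, SE 0.826), but its call did not rest on a wide margin: it was lost on leaving out any 1 of 15 of the 23 arrays (3.68 to 4.38, adjusted p 0.00948 to 0.101 over all 23 omissions). The arrays whose omission kept the call were WT CONT replicates 2, 4 and 6, WT PCN replicate 5, Pxr-/- CONT replicates 2 and 4 and Pxr-/- PCN replicates 4 and 6. Without the 3 arrays high in B cell markers the difference was 3.26 (SE 0.804, adjusted p = 0.352).

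Compared directly under PCN, B3galt5 was lower in Pxr-/- than in WT by -3.45 (SE 0.542, adjusted p = 0.00113), a 10.96-fold difference, and the highest Pxr-/- PCN array (10.50) lay below the lowest WT PCN array (10.62). This call was kept in all 23 omissions of an array (-3.86 to -3.16). Without the 3 arrays high in B cell markers the value was -2.74 (SE 0.634, adjusted p = 0.0783), no longer called. Without PCN the genotypes overlapped, and the Pxr-/- level was 0.52 higher (SE 0.515, 95% interval -0.55 to 1.59, adjusted p = 0.866).

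For B3gnt7, the probe A_51_P378576 gave lower levels after PCN in both genotypes, called in Pxr-/- and not in WT. In WT CONT its level was 6.60, 6.79, 6.79, 7.44, 7.29 and 7.32 in replicates 1 to 6, and in WT PCN 6.51, 5.84, 6.34, 5.97 and 6.00 in replicates 1 to 5. These WT groups did not overlap. The PCN effect in WT was -0.92 (SE 0.332), which was not called when the spread was shared over all 4 groups, and was called at -0.92 when only the WT arrays were fitted.

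In Pxr-/- CONT the same probe read 8.23, 7.80, 8.49, 6.74, 8.69 and 8.63 in replicates 1 to 6, and in Pxr-/- PCN 5.57, 5.80, 6.84, 6.75, 5.61 and 7.35. All 6 Pxr-/- PCN arrays lay below the Pxr-/- CONT mean of 8.10, but the ranges overlapped through Pxr-/- CONT replicate 4, the lowest of its group. The fitted effect was -1.78 (SE 0.316), a 3.43-fold lower level, and was called. The probe was well above background on 5 of the 6 Pxr-/- PCN arrays and on all 17 others. The effect was -1.11 (SE 0.462) in wash batch 1, where it was not called, and -2.45 (SE 0.307) in wash batch 2, and the scanner's processed signal gave -2.47 (SE 0.491).

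The PCN effect on B3gnt7 in WT minus that in Pxr-/- was 0.86 (SE 0.458, 95% interval -0.09 to 1.81, adjusted p = 1), so the larger fall in Pxr-/- did not pass the test of the difference, and the interval spans from no difference to a sizeable one. In the mice without PCN, B3gnt7 was 1.06 higher in Pxr-/- CONT than in WT CONT (SE 0.316, adjusted p = 0.209), a difference that was called only without Pxr-/- CONT replicate 4 (1.34, adjusted p = 0.039) or with slide as a fixed block (1.36, adjusted p = 0.0463). Under PCN the genotypes differed by 0.20 (SE 0.332, adjusted p = 1).

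The second B3gnt7 probe, A_55_P2719040, was near the detection floor. It was well above background on 4 of 6 Pxr-/- CONT arrays and on no array of the other groups. In Pxr-/- CONT it read 5.54, 5.45, 5.15, 4.97, 5.43 and 5.42 in replicates 1 to 6, and in Pxr-/- PCN 4.96, 4.68, 4.88, 4.77, 4.62 and 5.38. In WT CONT it read 5.04, 5.03, 5.18, 5.42, 4.84 and 5.09, and in WT PCN 4.68, 4.95, 4.97, 4.73 and 4.94, with all 11 WT arrays below the scanner's background call. Each array's lowest signal well above background was taken as its floor, and lower values in Pxr-/- PCN and WT CONT were raised to it. The mean of Pxr-/- CONT, left as it was, then lay 1.09-fold above Pxr-/- PCN and 1.08-fold above WT CONT. These ranges overlapped. Without the floor, the log2 difference was -0.45 (SE 0.121) for PCN in Pxr-/-, a description only, since no Pxr-/- PCN array was well above background. For genotype without PCN it was 0.22 (95% interval -0.03 to 0.48), which includes no difference. No fold can be given for PCN in WT, where both groups were not well above background.

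Over the whole set, 1 of 18 probes was called for PCN in WT (B3galt5, higher) against 0.692% of all probes, and 1 of 18 in Pxr-/- (B3gnt7, lower) against 0.947% of all probes. Since PCN results led to the choice of the set, nothing is read from these counts. In the difference of the PCN effects, 1 of 18 was called (B3galt5) against 0.078% of all probes. Between the genotypes, 0 of 18 were called without PCN against 0.148% of all probes. Of the 18, 2 had an unadjusted p of 0.05 or less in limma, beside 10.6% of all genes by brightest probe. Under PCN 1 of 18 was called (B3galt5, lower in Pxr-/-) against 0.366% of all probes. The call in the difference and the call under PCN are of B3galt5 and rest on the WT PCN arrays by which the set was chosen, so nothing is read from these counts either. The median change of the 18 probes was -0.04 for PCN in WT and -0.12 in Pxr-/-, beside -0.01 and -0.01 over all probes.

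**Figure D2:**
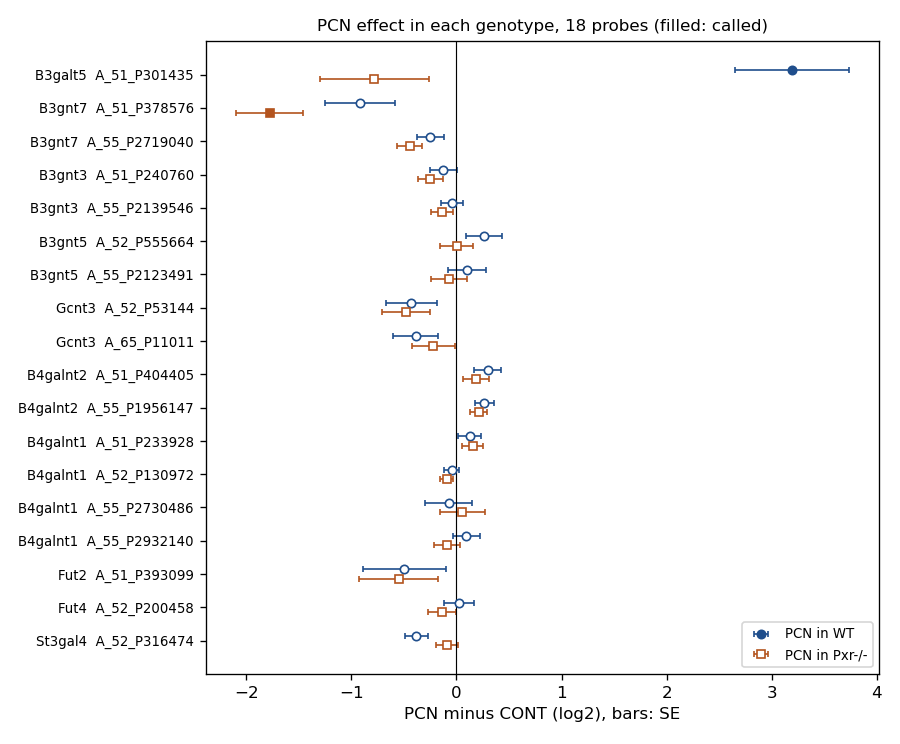
PCN minus CONT (log2) of each of the 18 probes in WT (circles) and Pxr-/- (squares), with SE as bars; filled symbols are called. The filled symbols are B3galt5 in WT (3.19) and B3gnt7 A_51_P378576 in Pxr-/- (-1.78), and the 15 probes of the other 8 genes lie between -0.55 and 0.30.

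The other 8 genes, with 15 probes, gave no call in any of the 5 comparisons. Their PCN changes ran from -0.50 to 0.30 in WT and from -0.55 to 0.21 in Pxr-/-, with SEs of 0.0644 to 0.395. The difference of their PCN effects between genotypes ran from -0.29 to 0.26 (lowest adjusted p 1). Between genotypes they differed by -0.36 to 0.58 without PCN (lowest adjusted p 0.54) and by -0.24 to 0.52 under PCN (lowest adjusted p 0.588).

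Among the chain-lengthening enzymes, B3gnt3, which extends mucin O-glycans, read 10.20 to 10.89 in WT CONT and 10.22 to 10.77 in WT PCN on its brightest probe (A_55_P2139546), with a PCN effect of -0.04 (SE 0.105) in WT and -0.14 in Pxr-/- (95% interval -0.35 to 0.07). Its other probe gave -0.12 and -0.25. B3gnt5, which starts the lacto series of glycolipids, had WT CONT levels of 6.74 to 7.45 and WT PCN levels of 6.59 to 7.68 on its brightest probe (A_55_P2123491), and its PCN effects were 0.10 (SE 0.183) and -0.07 (SE 0.174). These groups overlapped throughout.

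Gcnt3, the branching enzyme, gave lower means after PCN on both probes in both genotypes, none called. Its brightest probe (A_65_P11011) had means of 11.89 ± 0.13 (SD, n = 6) in WT CONT and 11.50 ± 0.26 (n = 5) in WT PCN, a difference of -0.39 (SE 0.216). In Pxr-/- the means were 11.96 ± 0.46 (n = 6) and 11.74 ± 0.51 (n = 6), a difference of -0.22 (SE 0.205). Its second probe (A_52_P53144) gave -0.43 (SE 0.239) in WT and -0.48 (SE 0.228) in Pxr-/-. The lower Pxr-/- means came from wash batch 2 (-0.63, SE 0.224, and -0.97, SE 0.259, on the brightest and the second probe), while wash batch 1 gave 0.19 (SE 0.291) and 0.01 (SE 0.285).

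Of the enzymes that act at chain ends, B4galnt2, which adds N-acetylgalactosamine to sialylated chains, gave slightly higher means after PCN on both probes in both genotypes, none called. Its brightest probe (A_55_P1956147) gave 0.26 (SE 0.0879) in WT and 0.21 (SE 0.0836) in Pxr-/-, and the other 0.30 (SE 0.130) and 0.19 (SE 0.123), each under the fold threshold. St3gal4, a sialyltransferase, had means of 13.80 ± 0.16 (n = 6) in WT CONT and 13.42 ± 0.27 (n = 5) in WT PCN, a difference of -0.38 (SE 0.109), and gave -0.09 (SE 0.104) in Pxr-/-. The difference of these effects was -0.29 (SE 0.150, adjusted p = 1).

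Fut2, the fucosyltransferase that makes the blood group H antigen on mucosal surfaces, was dim and spread widely. It was well above background on 3 of the 5 WT PCN arrays and on 5 of the 6 arrays in each other group. Its PCN effects, -0.50 (SE 0.395) in WT and -0.55 (SE 0.375) in Pxr-/-, lay within that spread. In Pxr-/- the value was 0.32 (SE 0.462) in wash batch 1 and -1.42 (SE 0.440) in wash batch 2. Fut4, which adds fucose further inside the chain end, gave 0.02 (SE 0.141) and -0.14 (SE 0.134), with levels between 9.35 and 10.20 on all arrays.

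B4galnt1, the ganglioside synthase, had 4 probes. The brightest (A_51_P233928) gave 0.13 (SE 0.109) for PCN in WT and 0.15 (SE 0.103) in Pxr-/-. The other 3 gave -0.08 to 0.09 in WT and -0.09 to 0.05 in Pxr-/-, so the probes did not share a sign. A_55_P2730486, among these 3, was well above background on 11 of 23 arrays.

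**Figure D3:**
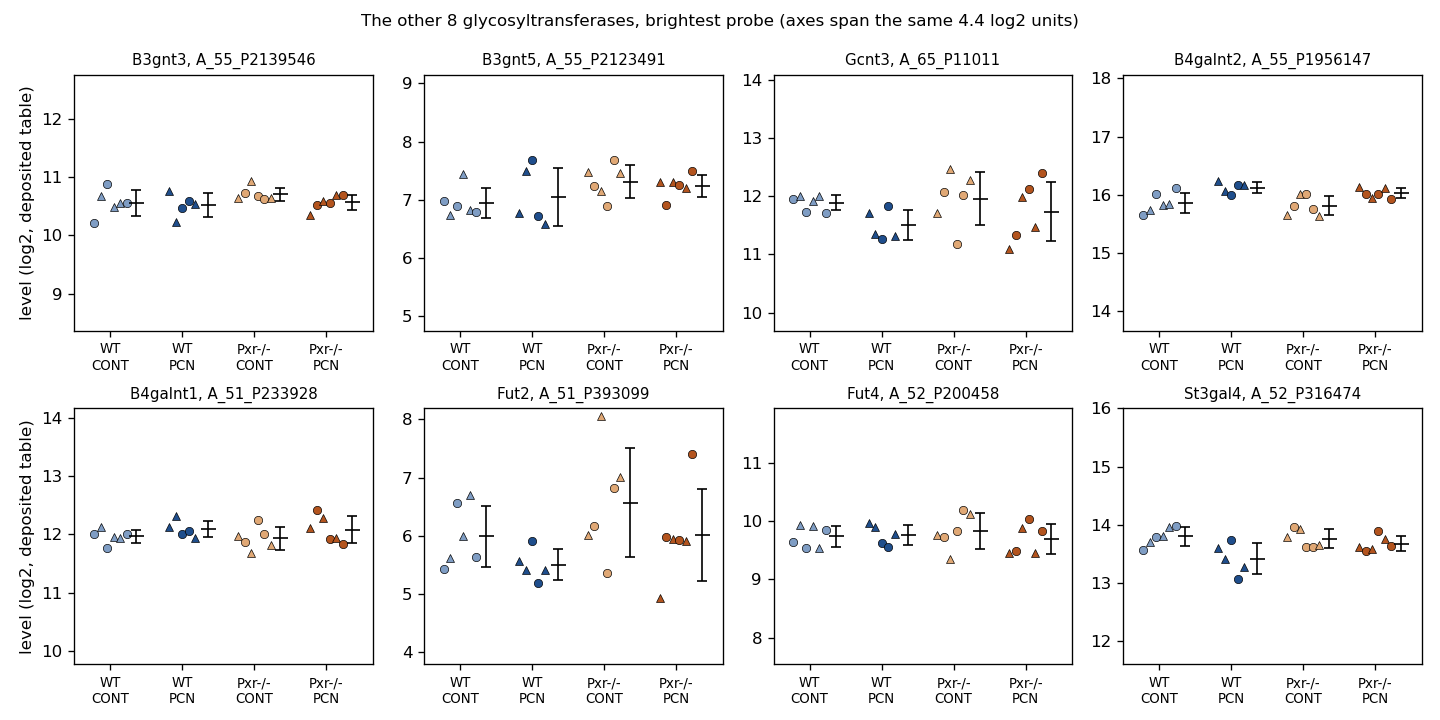
Level (log2, deposited table) of the brightest probe of the other 8 genes in each array, by group, with the mean ± SD; circles are wash batch 1 and triangles wash batch 2, and every panel spans the same range of 4.4 log2 units. The groups overlap in every panel, and Fut2 spreads most, from 4.93 to 8.05.

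The array-to-array spread within groups set these genes apart from each other. The residual SD, after group and wash batch, was 0.985 for B3galt5, 0.716 for Fut2 and 0.601 for B3gnt7 A_51_P378576, above 99.56%, 99.09% and 98.57% of all probes, where the median was 0.170. Both Gcnt3 probes (0.430 and 0.386) and the dim B4galnt1 probe A_55_P2730486 (0.403) also lay above the 95th percentile of 0.374, which made 6 of 18 probes. The tightest was another B4galnt1 probe (A_52_P130972, 0.0974), above 5.7% of all probes, and B4galnt2's brightest probe was at 0.141.

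**Figure D4:**
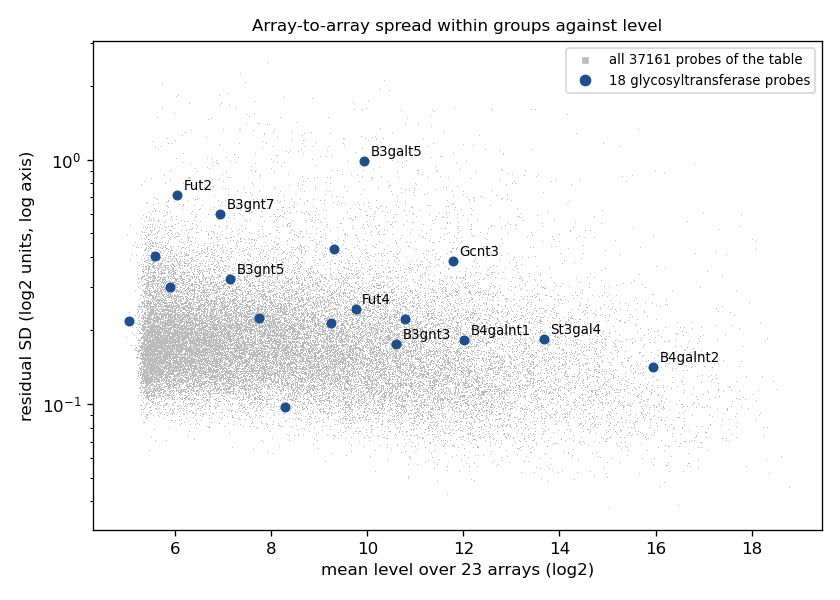
Residual SD within groups (log2 units, log axis) against mean level (log2) for all 37161 probes (grey) and the 18 glycosyltransferase probes (blue), the brightest of each gene named. B3galt5 (0.985), Fut2 (0.716) and B3gnt7 (0.601) lie in the upper edge of the cloud at their levels.

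The spread within groups was not wider in one genotype across the set: it was wider in Pxr-/- than in WT for 11 of the 18 probes, beside 59.2% of all probes. The ratio of the Pxr-/- to the WT SD was 2.43 for Gcnt3 A_65_P11011 (0.482 against 0.199), 2.33 for B3gnt7 A_51_P378576 (0.749 against 0.322), 2.01 for Fut2 (0.870 against 0.433) and 1.21 for B3galt5 (1.05 against 0.868). It was 0.385 for the dim B4galnt1 probe A_55_P2730486 (0.203 against 0.528), 0.574 for B3gnt3 A_55_P2139546, 0.626 for B3gnt5 A_55_P2123491 and 0.663 for St3gal4. No test of these ratios was made.

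Some arrays were extreme for several of the genes at once. Over the brightest probes of the 10 genes, WT CONT replicate 1 was the lowest of its group for 6, Pxr-/- CONT replicate 4 and Pxr-/- PCN replicate 1 for 5 each, and Pxr-/- PCN replicate 6 was the highest of its group for 5. These arrays had 63.8%, 61.8%, 65.8% and 65.2% of probes well above background, inside the range of all arrays. WT PCN replicates 1 and 3 were the highest of their group for 4 genes each. How often each array is extreme over all probes was not analysed, so the counts are not read as a trait of the set.

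With the groups pooled, B3galt5 and B3gnt7 A_51_P378576 deviated together, though not visibly so in WT PCN. There, B3galt5 deviated by -0.20, 0.29, 0.90, 0.73 and -1.72 in replicates 1 to 5. B3gnt7 deviated by 0.38, -0.29, 0.21, -0.16 and -0.13. The arrays farthest out on B3gnt7 were Pxr-/- CONT replicate 4 (B3galt5 -1.65, B3gnt7 -1.36) and Pxr-/- PCN replicates 6 (1.58 and 1.03) and 1 (-1.43 and -0.75). No correlation was taken in single groups. Over the 23 arrays, each taken as its deviation from its group mean, Pearson's r was 0.703 (permutation p = 0.00016, adjusted 0.00024 over 3 sets of arrays) and Spearman's rho 0.673 (permutation p = 0.00057, adjusted 0.000855). Without the 2 arrays farthest out on B3galt5 (WT PCN replicate 5 and Pxr-/- CONT replicate 4) r was 0.671 and rho 0.675. Within a wash batch, deviations were taken from the group means of that batch alone. The relation held in wash batch 1 (r = 0.956, rho = 0.927, n = 11, permutation p = 3e-05 and 0.00014, adjusted 9e-05 and 0.00042). It did not in wash batch 2 (r = 0.289, rho = 0.273, n = 12, permutation p = 0.367 and 0.392). Whether the batches differ in this relation was not tested. The permutations shuffled arrays freely, although deviations from a shared group mean are not independent of each other. All of these permutation p-values may therefore be too small.

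**Figure D5:**
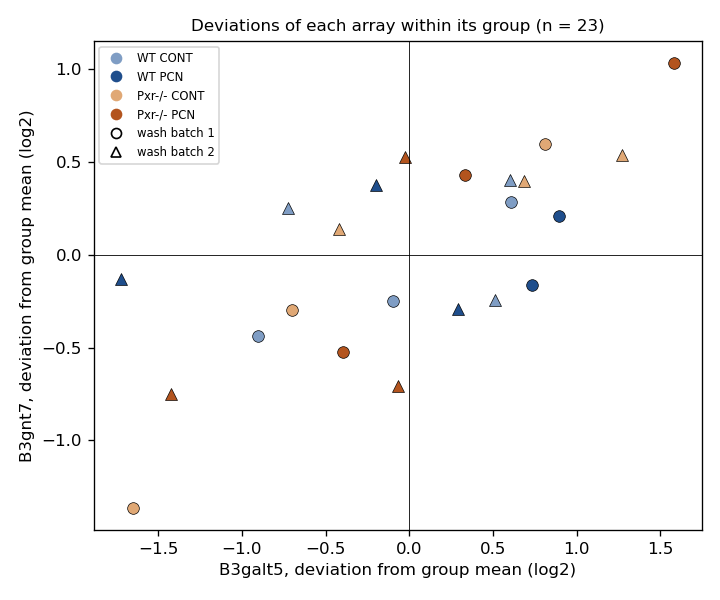
Deviation of B3gnt7 A_51_P378576 from its group mean against that of B3galt5 (both log2) for the 23 arrays; colours give the group, circles wash batch 1 and triangles wash batch 2. With deviations taken instead from the group means within a wash batch, r was 0.956 in batch 1 and 0.289 in batch 2. These values are not those of the plotted points.

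The genes whose levels over the 23 arrays were most like that of B3galt5, by Pearson's r among 17573 other genes, were Gstm4 (0.850), Gstm3 (0.839), Gstm1 (0.831), Sar1b (0.810) and Alas1 (0.808). The first 3 are glutathione S-transferases, Sar1b is a GTPase of vesicle transport and Alas1 is the first enzyme of heme synthesis. Their PCN changes were 0.73, 2.06, 0.81, 0.40 and 0.61 in WT and between -0.17 and 0.14 in Pxr-/-. Those most like B3gnt7 were Atp10b (0.921), Prpf4 (0.913), Stom (0.912), Cd38 (0.911) and Gna14 (0.904), with PCN changes of -0.85 to -0.32 in WT and -0.88 to -0.41 in Pxr-/-. The points of these correlations share arrays and group means, so they describe likeness only. Levels of all 4 groups entered the choice of these genes, so their PCN changes are not independent of it.

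In the wider glycosylation pathway 0 to 2 genes were called in each comparison. Of 102 further genes of O-glycan synthesis, chain extension, fucose, sialic acid and other end groups, glycolipids, sulfation, sugar donors and mucins, 89 were in the table. Taking the brightest probe of each gene, 1 of 89 was called for PCN in WT against 1.05% of all genes, and 2 of 89 in Pxr-/- against 1.49%. In the difference of PCN effects 0 of 89 were called in limma against 0.119% of all genes, and without PCN 0 of 89 differed between genotypes against 0.228%. Under PCN 1 of 89 differed between genotypes against 0.541% of all genes. At an unadjusted p of 0.05 or less there were 19 of 89 for PCN in WT (21.3%, beside 14.9% of all genes), 27 for PCN in Pxr-/- (30.3%, beside 23.3%), 7 for the difference (7.87%, beside 5.13%), 11 without PCN (12.4%, beside 10.6%) and 8 under PCN (8.99%, beside 8.44%). The median change was -0.05 for PCN in WT and 0.01 in Pxr-/-, beside -0.02 and 0.00 over all genes.

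The called gene in WT was B3gnt6 (A_55_P1994385), the N-acetylglucosaminyltransferase that starts a separate class of mucin O-glycan cores. Its mean was 8.85 ± 0.23 (SD, n = 6) in WT CONT and 9.84 ± 0.19 (n = 5) in WT PCN, a rise of 1.00 (SE 0.132, adjusted p = 0.000146), and 8.56 ± 0.20 and 8.83 ± 0.27 (n = 6 each) in Pxr-/- (0.28, SE 0.126, adjusted p = 0.227). It was also lower in Pxr-/- than in WT under PCN (-1.01, SE 0.132, adjusted p = 0.000104). The difference of its PCN effects was 0.72 (SE 0.182) and was not called (adjusted p = 0.282). The lists without a called gene in any comparison were those of chain extension, fucose, sialic acid, other end groups, glycolipids and sugar donors. Both calls of B3gnt6 were kept in all 23 omissions of an array. The pathway lists were drawn up with earlier results of these data known. The p-values of B3gnt6 are therefore not independent of that choice.

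The called genes in Pxr-/- were Chst4, a sulfotransferase of mucin glycans, and Muc13, a membrane mucin. Chst4 fell by 0.84 (SE 0.212, adjusted p = 0.0297) and Muc13 by 0.59 (SE 0.129, adjusted p = 0.0142) after PCN in Pxr-/-, against -0.64 (SE 0.223, adjusted p = 0.199) and -0.25 (SE 0.136, adjusted p = 0.5) in WT. The differences of these effects were not called (adjusted p = 1 for both). As for B3gnt6, the p-values of Chst4 and Muc13 are not independent of how the lists were chosen. Either call was lost without some single arrays: Chst4 without 6 of the 23 and Muc13 without 5, and both were lost without the 3 arrays high in B cell markers (-0.73, adjusted p = 0.0996, and -0.56, below the fold threshold).

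Markers of other cell types moved beside these genes. Over all genes, 1.05% were called for PCN in WT and 1.49% in Pxr-/-. Of 8 goblet cell markers, 2 were called lower after PCN in Pxr-/- (Fcgbp and Agr2), with a median of -0.48, and 0 in WT, with a median of -0.33. The summed goblet cell level ran from 19.96 to 20.21 in WT CONT, 19.55 to 19.96 in WT PCN, 19.86 to 20.16 in Pxr-/- CONT and 19.25 to 19.87 in Pxr-/- PCN, with all 8 markers above background on all arrays. Of 5 neutrophil markers 2 were called higher after PCN in each genotype, with a summed level of 15.16 to 15.69 over all groups. In WT 4 of the 5 were higher (median 0.58, -0.26 to 2.16), and in Pxr-/- 3 of 5 (median 0.63, -0.23 to 2.90). Of these 5 markers, 3 were above background on all arrays. The 8 B cell and Peyer patch markers gave no call, but in WT all 8 were higher after PCN, with a median of 1.42 (0.27 to 2.10), and in Pxr-/- 7 of 8, with a median of 0.45 (-0.26 to 0.62). Their summed level was highest on the 3 arrays named above. Of these, WT PCN replicates 2 and 3 had B3galt5 levels of 12.63 and 13.24, and Pxr-/- PCN replicate 1 had 7.49. The remaining WT PCN arrays, replicates 1, 4 and 5, had summed B cell levels of 11.16, 11.17 and 11.35. Their B3galt5 levels were 12.15, 13.08 and 10.62. Without the 3 arrays high in B cell markers the PCN effect on B3galt5 was 2.77 (SE 0.609) in WT and -0.49 (SE 0.520) in Pxr-/-. The 5 markers of Peyer patch epithelium were all higher in both genotypes (medians 0.60 and 0.54), with Tnfaip2 called in WT.

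Of 9 genes of microbiota and IL-22 responsive epithelium, Lcn2 was called higher in both genotypes (0.78 in WT and 0.76 in Pxr-/-), but the median of the list was -0.20 in WT, with 4 of 9 higher, and -0.70 in Pxr-/-, with 2 of 9 higher. Msln, of mesothelium, was called higher in both genotypes (list medians 0.15 and 0.44). In Pxr-/- Cd68 of macrophages, Cnn1 of smooth muscle and Sycn, listed here under colon epithelium, were called higher (list medians 0.31, 0.47 and 0.06). Of the 5 genes in that colon list, 3 were higher. No marker of the other lists (enterocytes, Paneth, stem and enteroendocrine cells, villus tip, T cells, proximal intestine, pancreas) was called for PCN, and their medians lay between -0.17 and 0.06 in WT and between -0.31 and 0.31 in Pxr-/-. The summed level of ileal enterocyte markers stayed between 19.86 and 20.28. The part of goblet cells, B cells or neutrophils in the changes of B3galt5, B3gnt7, B3gnt6, Chst4 and Muc13 was not tested.

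Start-site windows of RefSeq (build GRCm38.p6) were available for 7 of the 10 genes, 9 windows in all. The hexamers AGGTCA and AGTTCA, the letters that nuclear receptors of the PXR family can bind, were searched on both strands in the 250 bases before each start. AGGTCA was found in 1 of the 9 windows and in 14% of all 32851 windows, and AGTTCA in 0 of 9 and in 11.8% of all windows. The match lay 192 bases before 1 of the 3 annotated starts of B3galt5, the gene called in WT mice, and is printed with its surroundings, the match in capitals as it reads on the plus strand, where AGGTCA appears as its reverse complement (chr16:96273284-96273363).
B3galt5: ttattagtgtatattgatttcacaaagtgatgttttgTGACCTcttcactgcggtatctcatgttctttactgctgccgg
A match at this background share describes the window only.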

How the data were processed

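Ileum RNA (150 ng per mouse) was labelled with Cy3 and hybridised to 1-colour Agilent arrays. The scanner values (Agilent Feature Extraction 10.10.1.1) are intensity per the file headers, without normalization. The values analysed are on the log2 scale, as the authors deposited them for 37161 probes. Methods in the study, written for liver arrays of the same mice, give a filter on median signal, log2 transformation, wash batch correction and CrossNorm, with no filter rule. When checked, all columns held the same quantiles. Because levels were scaled array by array, a change is relative to the other probes, and wash batch was already corrected once before the fit.

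Groups were fitted with limma 3.58.1 in R 4.3.3 on all 23 arrays, with wash batch (1: 3, 2, 3 and 3 arrays of WT CONT, WT PCN, Pxr-/- CONT and Pxr-/- PCN; 2: 3 of each) as a term and 2-sided moderated tests. The 5 contrasts were PCN minus CONT in WT and in Pxr-/-, their difference, and Pxr-/- minus WT without and with PCN. The arrays lay on 8 slides. With 5 or 6 arrays in a group, the number of arrays sets the precision. A gene's value is that of its probe with the highest mean level. The scripts were tested on simulated data. Correlations were tested with 100000 permutations that shuffled arrays across groups.

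The members, the 9 pathway lists and the 17 marker lists were chosen with earlier results of these data known. Named genes were all members, pathway genes called in any contrast, and the 5 genes most like B3galt5 and B3gnt7. Alternatives covered scanner values under other normalizations, filters, batch and slide terms, array weights and omitted arrays. 1 alternative, leaving out 3 arrays high in B cell markers, was added after seeing the data.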

Additional observations from a re-analysis of the deposited data

Results flagged for a closer look

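B3galt5 (A_51_P301435) is listed because its PCN effect differed between the genotypes, by 3.97 on the log2 scale (limma's adjusted p = 0.0338), with the limits given in the report.

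In 5 of 72 groups of arrays (18 probes in 4 groups), 1 array stood apart from the rest of its group by Dixon's gap, the distance to the nearest other array over the group's range. About 3.6 such gaps would arise by chance (1 in 20). For B3gnt3, WT CONT replicate 1 was low on probe A_51_P240760 (8.75 beside a nearest level of 9.20, gap 0.693), and Pxr-/- CONT replicate 3 was high on A_55_P2139546 (10.93 beside 10.72, gap 0.677). For B3gnt5, WT CONT replicate 4 was high on both probes in the table (6.01 beside 5.67 on A_52_P555664, gap 0.713, and 7.45 beside 6.99 on A_55_P2123491, gap 0.653), and Pxr-/- PCN replicate 2 was low on A_52_P555664 (5.41 beside 5.97, gap 0.644). No array of B3galt5 or B3gnt7 was far enough from its group for this.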

How the results depend on the processing

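The count of called glycosyltransferase probes for PCN in WT was 1, and became 2 with only the WT arrays fitted and 0 within either wash batch. For PCN in Pxr-/- it was 1, and became 2 with no fold threshold (the second B3gnt7 probe) and 0 within wash batch 1. For the difference of PCN effects it was 1, and became 0 with the processed signal scaled to the 75th percentile, with no filter on dim probes, with slide as a fixed block, with array weights, within either wash batch, and without the 3 arrays high in B cell markers. For genotype under PCN it was 1, and became 0 within either wash batch and without those 3 arrays. For genotype without PCN it was 0, and became 1 with slide as a fixed block. Leaving out 1 array at a time gave 1 throughout for both PCN comparisons and for genotype under PCN, and 0 to 1 for the other 2.

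The pathway count for PCN in WT was 1, and became 2 with the processed signal, with only the WT arrays and without the 3 arrays high in B cell markers, 3 with no fold threshold and 0 within wash batch 2. For PCN in Pxr-/- it was 2, and became 1 with only the Pxr-/- arrays, 10 with no fold threshold, and 0 with array weights, within either wash batch and without those 3 arrays. For genotype under PCN it was 1, and became 0 within wash batch 2. For genotype without PCN it was 0, and became 1 with slide as a fixed block and with no fold threshold. Leaving out 1 array gave 1 for PCN in WT, 0 to 2 for PCN in Pxr-/-, 0 for the difference and for genotype without PCN, and 1 to 2 for genotype under PCN.

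The number of probes above the 95th percentile of spread was 6, became 3 within wash batch 2, and was 5 to 6 without single arrays. The correlation of B3galt5 with B3gnt7 was 0.289 (permutation p = 0.367) within wash batch 2 and 0.618 to 0.762 without single arrays. B3gnt7 between genotypes under PCN changed sign within wash batch 2 (-0.10) and without Pxr-/- PCN replicate 6, with -0.0153 to 0.375 over the omissions of 1 array. Within a wash batch each group holds 2 or 3 arrays. The cause of the other changes was not tested.

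The replicate numbers did not pair the arrays (correlations of -0.20 to 0.42 between same-numbered arrays, 6 of 33 over 0.1). With the replicate block the PCN effect on B3galt5 was 3.39 in WT and the difference between genotypes 4.18 (adjusted p = 0.0165), and the block changed no count of calls. Signal limits the second B3gnt7 probe, the B4galnt1 probe A_55_P2730486 and Fut2, which were above background on some arrays only.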
